A study of Rattus norvegicus with 4 samples.

Results

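The BMP and TGF-beta ligands and receptors are a group of secreted growth factors and the serine/threonine kinase receptors that bind them. The genes followed here were Bmp2, Bmp4, Bmp7, Tgfb1, Tgfb2 and Tgfb3 for the ligands, Bmpr1a, Tgfbr1 and Tgfbr2 for the receptors, and Smad7 for feedback inhibition. Every probe set (a set of short probes that together measure 1 transcript) whose platform annotation gave exactly 1 gene symbol, and that symbol from the list, was taken. This gave 14 of the 31099 probe sets on the array, for 9 of the 10 genes. Tgfbr2 had no such probe set and was not analysed here.

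Retinal cells of Sprague Dawley rat embryos at embryonic day 18 were dissociated and grown as neurospheres, floating clusters of dividing cells. In 1 group the medium held epidermal growth factor (EGF) plus medium that endothelial cells (vessel lining cells) had conditioned, and in the other EGF alone, so EGF was common to both. Each group had 2 arrays, labelled biological replicates 1 and 2. Per the series description the cells were pooled from several embryos, so no value belongs to a single animal, and no source used here gives the origin of the endothelial cells.

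In this pathway a dimeric ligand brings together type I and type II receptors, and the type I receptor phosphorylates receptor Smads, which enter the nucleus with Smad4 and change transcription. TGF-beta ligands act mainly through Tgfbr1, Tgfbr2 and Smads 2 and 3. BMPs act through type I receptors such as Bmpr1a and Smads 1, 5 and 9. In the developing retina BMP4 is known for dorsal identity, BMP7 for early eye formation, and TGF-beta 2 as a signal that limits proliferation of late progenitors in rodents.

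Levels are given as log2 values after quantile normalization, which gives all 4 arrays the same distribution. The deposited values were not equal between arrays: their medians were 6.84 and 6.56 log2 in the conditioned-medium arrays and 6.03 and 6.25 log2 in the EGF arrays. The comparison is conditioned medium minus EGF alone in limma, fitted over the 21717 probe sets that were not array controls and did not lie in the lowest 30% of mean values (limit 4.77 log2). Each difference was also fitted on the deposited values and on values centred on each array's median. The words rose and fell are used where the Benjamini-Hochberg adjusted p was under 0.05 in the same direction on all 3 scales. The median difference over all tested probe sets was -0.01 log2 on quantile normalized, 0.43 on deposited and -0.14 on median-centred values. With 2 arrays a group an exact permutation test of a single probe set cannot give a two-sided p below 0.333, so the p-values rest on limma's pooling of the spread over probe sets.

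As a check of the label, all 13 of the 13 retina markers that could be named on the array, among them Pax6, Rax and Otx2, had a mean above the dim limit. By their brightest probe set 11494 of all 14217 genes did so too, so the count is a weak check. Rcvrn, among the 13, had a conditioned-medium mean of 4.43 log2, under the limit, and passed through the EGF arrays. The control probe sets at the 3' end of beta-actin exceeded those at its 5' end, a measure of RNA quality, by 1.54 and 1.37 log2 in the conditioned-medium arrays and 1.99 and 2.08 log2 in the EGF arrays, so this gap moved with the condition. The same gap for GAPDH was 0.19 and 0.18 log2 in the conditioned-medium arrays and 0.31 and 0.30 log2 in the EGF arrays. The part of these gaps in the results was not tested. In a bulk culture, more cells of a type and more RNA per cell cannot be told apart.

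Of the 14 probe sets, 10 passed the dim limit, for 8 genes, and 4 were too dim to be tested. With conditioned medium the ligands Tgfb1 and Bmp2 rose, Tgfb1 by 1.94-fold and Bmp2 by 1.48-fold and 1.52-fold in its 2 probe sets. Tgfb2 was 1.20-fold and 1.27-fold higher but did not pass on all scales. Bmp7, Tgfb3, Bmpr1a, Tgfbr1 and Smad7 did not pass. These 3 rises among 10 tested probe sets stand beside 7.27% of all tested probe sets that rose, and 0 of the 10 fell, beside 1.51% of all (limma; 0 also at an unadjusted p under 0.05). On deposited values alone 8 of the 10 were higher, beside 38.3% of all higher and 1.51% lower, and on median-centred values alone 3, beside 8.4% higher and 25.6% lower. By size alone, 0 of the 10 differed by at least 1 log2 without overlap, beside 2.03% of all higher and 1.14% lower. The median difference of the 10 was 0.23 log2 on quantile normalized values, 0.63 on deposited and 0.06 on median-centred values.

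**Figure D1:**
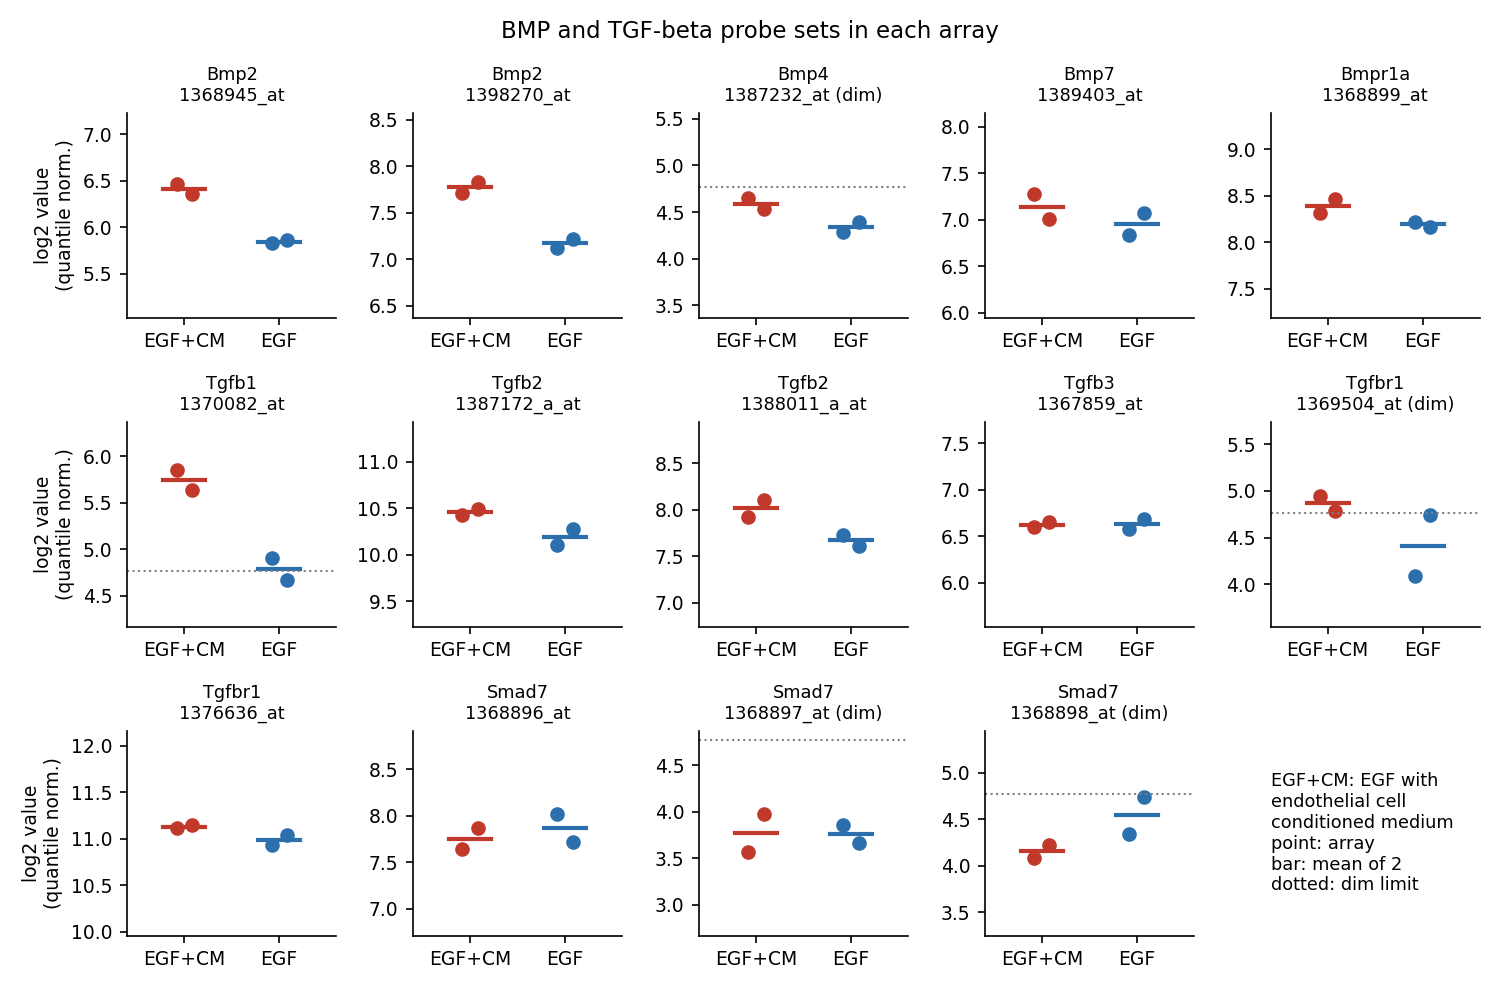
Quantile normalized log2 values of the 14 probe sets, with the 2 conditioned-medium arrays (EGF+CM, red) left of the 2 EGF arrays (blue). Every panel spans the same log2 range, points are arrays, bars are group means, and the dotted line is the 4.77 log2 limit below which a mean was called dim. The Bmp2 and Tgfb1 groups are well apart, while those of Tgfb3, Bmp7 and the brightest Smad7 probe set overlap.

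Tgfb1 encodes the TGF-beta 1 ligand, made by many cell types and known as a product of microglia and platelets. Its single probe set, 1370082_at, read 5.86 and 5.64 log2 in the conditioned-medium arrays, against 4.91 and 4.67 log2 in the EGF arrays. Both conditioned-medium arrays lay above both EGF arrays. The group means were 5.75 ± 0.15 log2 with conditioned medium and 4.79 ± 0.16 log2 with EGF alone (SD, n = 2 each). The difference was 0.96 ± 0.25 log2 (SE, 95% interval 0.40 to 1.51, limma adjusted p = 0.0184), and 1.69 on deposited and 1.13 on median-centred values. The EGF mean of 4.79 log2 lay just above the dim limit of 4.77 log2, and EGF replicate 2, at 4.67 log2, lay under it. Without any 1 of the 4 arrays the difference was 0.83 to 1.08 log2 and the call was lost. Such a fit leaves 1 array in a group. Without a conditioned-medium array no probe set at all was called, so that loss says little of Tgfb1 itself. Without either EGF array other probe sets kept their calls, so there the loss was not shared by all.

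Markers of other cell types also differed between the groups. The counts below stand beside 8.53% of all 11494 genes tested that rose and 1.78% that fell. Of 9 tested microglia markers 6 rose, including the colony-stimulating factor receptor Csf1r (1.01 log2) and the adaptor Tyrobp (1.16 log2), and 3 more on the array, Itgam, C1qb and P2ry12, were too dim to be tested. Ptprc and C1qc, counted among the 6, had EGF means of 4.60 and 4.62 log2, under the dim limit, and passed the filter through the conditioned-medium arrays. The signals of the 9 summed on the linear scale to 1035 and 1080 in the conditioned-medium arrays and 532 and 567 in the EGF arrays. Of 7 tested mesenchymal markers 3 rose, Pdgfrb, Pdgfra and Twist1, with sums of 477 and 487 against 317 and 308 with EGF, and 5 were dim. The other tested Pdgfrb probe sets, 1379211_at (0.68 log2) and 1391394_s_at (-0.16 log2), had overlapping groups and were not called. Pdgfra lost its call with no filter on dim probe sets, and all 3 genes went untested with the lowest 50% left out. Of 6 tested endothelial markers Flt1 and Esam rose. Flt1 had an EGF mean of 3.82 log2, under the dim limit, and passed the filter through the conditioned-medium arrays, and Esam lost its call with no filter on dim probe sets and without limma's intensity trend. The 6 summed to 5839 and 5746 with conditioned medium and 4271 and 4447 with EGF, most of it from Kdr, which was not called (12.41 and 12.39 log2 with conditioned medium, 11.95 and 12.03 log2 with EGF). The defining endothelial markers Pecam1, Tie1, Tek and Emcn were dim. Of the 13 retina markers 3 fell, the photoreceptor genes Opn1sw (-2.41 log2), Sag (-1.43 log2) and Crx (-1.12 log2), and Six6 rose. On quantile normalized values alone 8 were lower and 2 higher, beside 13.3% lower and 15.2% higher over all genes tested. Retina markers summed to 30856 and 29820 with conditioned medium and 35701 and 35603 with EGF. The part of these cell types in the rises of Tgfb1 and Bmp2 was not tested.

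**Figure D2:**
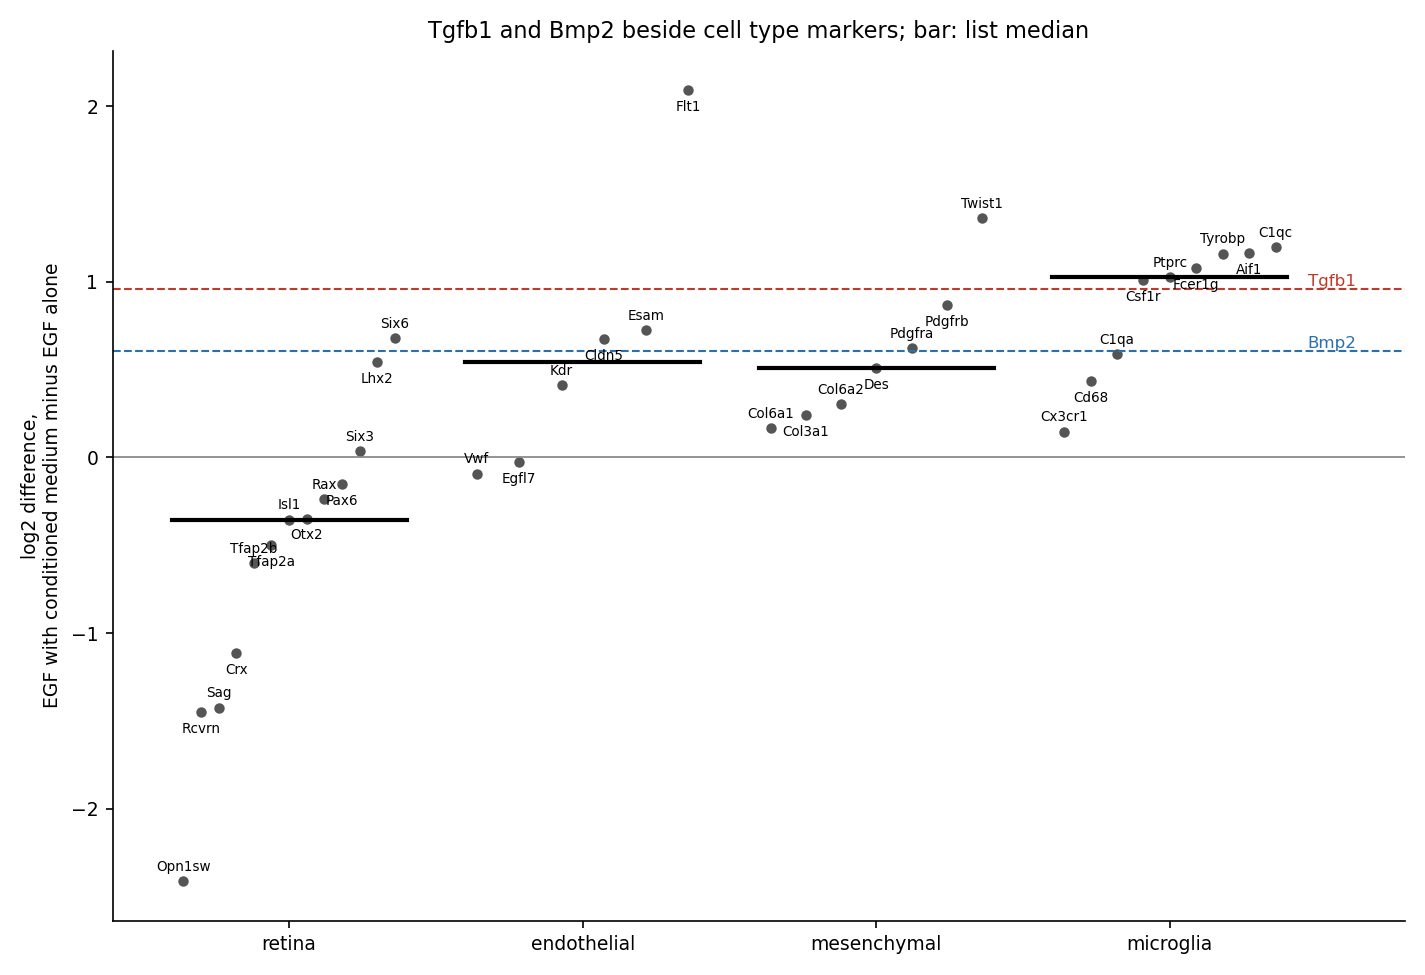
Log2 differences (conditioned medium minus EGF alone, quantile normalized) of the tested marker genes of 4 cell types, 1 point per gene, with the list median as a bar. Dashed lines mark Tgfb1 (0.96) and the brighter Bmp2 probe set (0.60); the microglia median, 1.03, lies just above Tgfb1, and the retina median is -0.35.

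Because Tgfb1 had the largest difference among the 10 tested probe sets, its promoter window is shown, from 250 bases before to 50 after the RefSeq start, at GRCr8 chr1:90324062-90324361 on the plus strand. Capitals mark AGAC or its reverse complement GTCT, the core that Smad3 and Smad4 are known to bind.
Tgfb1: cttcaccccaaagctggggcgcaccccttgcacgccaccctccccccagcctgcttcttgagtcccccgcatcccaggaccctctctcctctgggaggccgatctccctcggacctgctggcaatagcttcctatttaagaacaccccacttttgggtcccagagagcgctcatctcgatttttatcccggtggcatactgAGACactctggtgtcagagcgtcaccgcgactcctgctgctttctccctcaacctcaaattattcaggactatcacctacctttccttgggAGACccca
The window holds this core 2 times on the 2 strands together. So short a motif is common: 88.8% of the 33469 RefSeq promoter windows of the same length hold it, as do 6 of the 8 members with a window in the table.

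Bmp2, a BMP ligand known for bone formation and for patterning of several embryonic tissues, was measured by 2 probe sets that gave like differences. The brighter, 1398270_at, read 7.72 and 7.83 log2 with conditioned medium, against 7.13 and 7.22 log2 with EGF alone. The other, 1368945_at, read 6.46 and 6.36 log2 with conditioned medium, against 5.83 and 5.86 log2 with EGF alone. In both, the groups were separate by far more than the gap between arrays of a group. The differences were 0.60 ± 0.12 log2 (SE, 95% interval 0.33 to 0.88, limma adjusted p = 0.00596) for the brighter and 0.57 ± 0.18 log2 (SE, 0.17 to 0.96, limma adjusted p = 0.0420) for the other. On deposited values they were 1.05 and 1.17 log2, and on median-centred values 0.48 and 0.61 log2. With any 1 array left out they stayed between 0.53 and 0.67 log2, and both calls were lost. Such fits leave 1 array in a group. No probe set was called without a conditioned-medium array, while others kept their calls without an EGF array. With the replicate number as a block the dimmer probe set had an adjusted p of 0.0598, and with no filter on dim probe sets 0.0911. Both probe sets measure 1 gene in the same RNA and are not replicates of each other.

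Bmp4 and Bmp7, the other BMP ligands of the group, gave no call. Bmp4 was too dim to be tested, at 4.65 and 4.53 log2 with conditioned medium and 4.28 and 4.40 log2 with EGF alone. All 4 of these values lie under the dim limit, and no difference could be read from them. Bmp7 read 7.27 and 7.00 log2 with conditioned medium and 6.84 and 7.07 log2 with EGF alone, and the groups overlapped. Its difference was 0.18 log2, with a 95% interval of -0.17 to 0.53 (limma adjusted p = 0.432).

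Tgfb2, the TGF-beta form known from retinal neurons and glia, was measured by 2 probe sets. The brighter, 1387172_a_at, read 10.43 and 10.49 log2 with conditioned medium, against 10.11 and 10.28 log2 with EGF alone. The other, 1388011_a_at, read 7.92 and 8.11 log2 with conditioned medium, against 7.73 and 7.61 log2 with EGF alone. Neither pair of groups overlapped, and the differences, 0.27 ± 0.08 and 0.34 ± 0.12 log2 (SE), were close in size. The brighter passed on quantile normalized values (limma adjusted p = 0.0404) and the other did not (adjusted p = 0.0650). On median-centred values the differences were 0.02 and 0.19 log2 and neither passed, so no rise of Tgfb2 is called. Tgfb3, known from palate and lung development, read 6.59 and 6.66 log2 with conditioned medium and 6.57 and 6.68 log2 with EGF alone. The groups overlapped. Its difference was -0.00 log2 (95% interval -0.35 to 0.34, limma adjusted p = 0.989), and its sign turned on deposited values, where it was 0.55 log2.

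Among the receptors, Bmpr1a, a type I receptor of BMPs, read 8.31 and 8.46 log2 with conditioned medium and 8.22 and 8.16 log2 with EGF alone. The groups did not overlap, but the difference of 0.20 log2 did not pass (95% interval -0.04 to 0.44, limma adjusted p = 0.211). Tgfbr1, the type I receptor of TGF-beta, read 11.11 and 11.14 log2 with conditioned medium and 10.94 and 11.04 log2 with EGF alone in its brighter probe set, 1376636_at. That difference was 0.14 log2 (95% interval -0.02 to 0.30, limma adjusted p = 0.185), and it turned to -0.12 log2 on median-centred values. The second Tgfbr1 probe set, 1369504_at, was dim, at 4.95 and 4.79 log2 with conditioned medium and 4.08 and 4.74 log2 with EGF alone. Over the tested probe sets 7 of 10 had both conditioned-medium arrays above both EGF arrays, beside 30.3% of all tested probe sets, and 0 had both below, beside 33.1%. On deposited values 13 of the 14 probe sets, dim ones included, were higher without overlap, beside 69.4% of all probe sets higher and 3.5% lower.

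**Figure D3:**
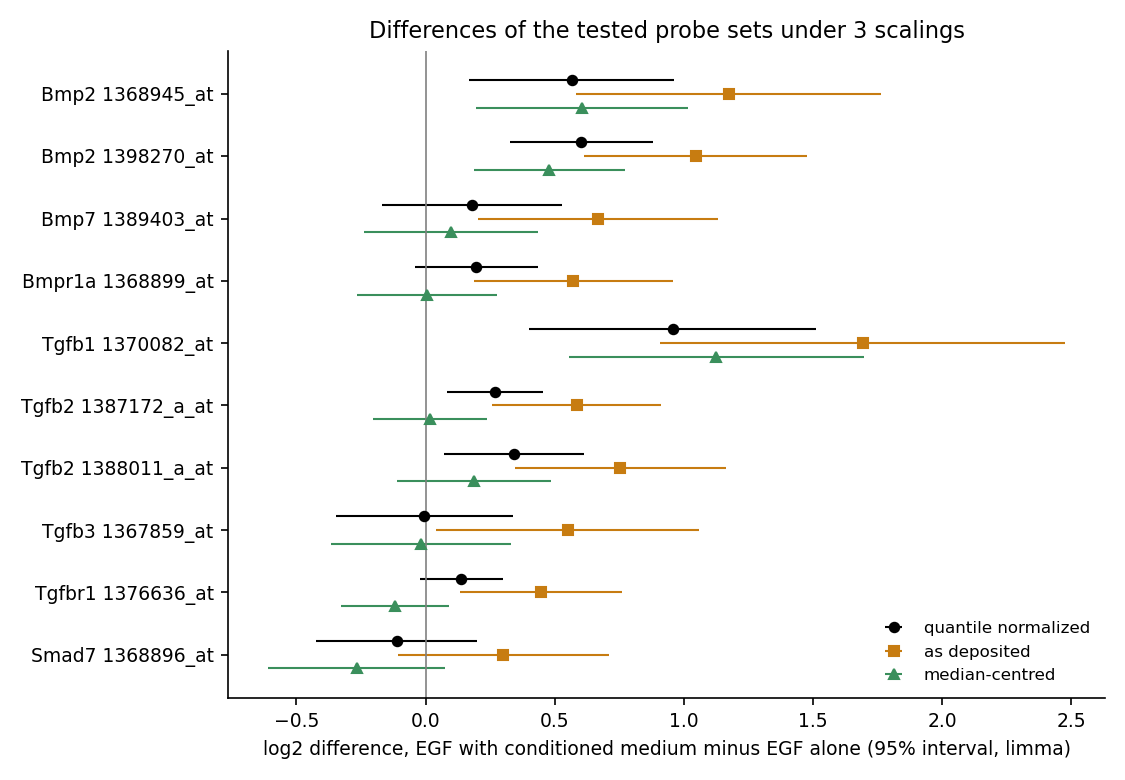
Log2 differences of the 10 tested probe sets with limma's 95% intervals on quantile normalized (black), deposited (orange) and median-centred (green) values. Tgfb1 and both Bmp2 probe sets lie above 0 with their intervals on all 3 scales, and the deposited values lie to the right of the other scales for every probe set.

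Smad7, an inhibitory Smad that TGF-beta and BMP signals induce and that blocks the type I receptors, gave no call. Its brightest probe set, 1368896_at, read 7.64 and 7.87 log2 with conditioned medium and 8.02 and 7.72 log2 with EGF alone, and the groups overlapped. The difference was -0.11 log2 (95% interval -0.42 to 0.20, limma adjusted p = 0.595), and 0.30 log2 on deposited values, so its sign depended on the scaling. The other Smad7 probe sets were dim. Probe set 1368897_at read 3.57 and 3.98 log2 with conditioned medium and 3.86 and 3.66 log2 with EGF alone. Probe set 1368898_at read 4.08 and 4.23 log2 with conditioned medium and 4.34 and 4.74 log2 with EGF alone.

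The Smad7 promoter window is shown as that of the feedback gene of the group, at GRCr8 chr18:71263258-71263557 on the plus strand. Capitals mark AGAC or GTCT and the palindrome GGCGCC, a GC-rich element known from BMP-responsive genes.
Smad7: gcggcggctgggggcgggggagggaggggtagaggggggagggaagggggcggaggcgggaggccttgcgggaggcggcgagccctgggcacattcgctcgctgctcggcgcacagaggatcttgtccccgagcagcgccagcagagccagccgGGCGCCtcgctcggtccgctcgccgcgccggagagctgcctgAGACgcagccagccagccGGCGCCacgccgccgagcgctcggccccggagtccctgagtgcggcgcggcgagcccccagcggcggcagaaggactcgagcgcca
This window holds GGCGCC 2 times and AGAC once. GGCGCC was found in 2 of the 8 members with a window, Smad7 and Tgfbr1, and in 11% of all windows, searched on both strands. A match is a run of letters and no evidence of binding. Bmp2 and Bmp7 had no window in the table.

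The rest of the pathway was described through lists of other ligands, receptors, Smads, inhibitors and target genes, with each gene represented by its brightest probe set. Of 122 listed genes 100 could be named on the array and 77 were bright enough to be tested. Of the 77, 23 rose and 0 fell, beside 8.53% and 1.78% of the 11494 genes tested. At an unadjusted p under 0.05 on all 3 scales 28 were higher and 1 was lower, and on quantile normalized values alone 29 were higher and 8 lower. The share on quantile normalized values over all genes was 15.2% higher and 13.3% lower. Over all probe sets, 328 were lower on deposited values and 328 on all 3 scales, so the deposited values decided which falls were called. The counts of the lists below stand beside the same 8.53% of genes that rose and 1.78% that fell. No test compared the lists with each other.

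Of the 7 other ligands tested 0 passed on all scales (limma; 1 lower at an unadjusted p under 0.05), and the median difference was -0.17 log2. Inhbb, the activin beta B subunit, read 9.47 and 9.60 log2 with conditioned medium against 10.24 and 10.26 log2 with EGF alone, a difference of -0.72 log2 (limma adjusted p = 0.000234). It missed only on deposited values (-0.40 log2, adjusted p = 0.0523). Gdf10, a BMP3-like ligand, differed by -0.90 log2 but missed on 2 of the 3 scales. Its conditioned-medium mean of 4.40 log2 was under the dim limit, and it passed the filter through the EGF arrays. Of 9 other receptors and coreceptors 0 passed (limma; 1 higher at an unadjusted p under 0.05). The smallest p-values were those of Rgmb, a BMP coreceptor (-0.39 log2), and Tgfbr3, the TGF-beta coreceptor betaglycan (0.61 log2). The dimmer tested probe set of each gave less, with overlapping groups. Rgmb 1394000_at differed by -0.11 log2 (limma adjusted p = 0.577) and Tgfbr3 1369219_at by 0.01 log2 (limma adjusted p = 0.977).

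Among 5 Smad transducers tested, Smad3, which carries TGF-beta and activin signals, rose. It read 8.93 and 8.86 log2 with conditioned medium, against 8.26 and 8.35 log2 with EGF alone, which is 1.50-fold (0.59 ± 0.10 SE, limma adjusted p = 0.00194). It lost its call without limma's intensity trend. On quantile normalized values alone 2 of the 5 were higher and 1, Smad2, was lower. Smad2 differed by -0.28 log2 (limma adjusted p = 0.0170), by -0.53 log2 on median-centred and by 0.04 log2 on deposited values, where it missed. Of 10 intracellular inhibitors 2 rose, Pmepa1 and Bambi, and 0 fell, beside 8.53% and 1.78% of all genes tested. Pmepa1, a TGF-beta induced protein that keeps receptor Smads from the receptor, rose by 0.88 ± 0.08 log2 (SE), and Bambi, a decoy receptor without a kinase, by 0.57 ± 0.08 log2 (SE). Bambi lost its call with the replicate number as a block and without the trend. On quantile normalized values alone 4 of the 10 were higher and 1, Smurf2, was lower. Smurf2 differed by -0.47 log2 (limma adjusted p = 0.00443) but missed on deposited values (-0.14 log2). Its dimmer probe set, 1398420_at, differed by -0.14 log2 with overlapping groups.

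Of 8 secreted antagonists tested 3 rose and 0 fell. Sostdc1, a BMP and Wnt antagonist, read 10.81 and 10.80 log2 with conditioned medium, against 8.28 and 8.55 log2 with EGF alone, a 5.25-fold rise (2.39 ± 0.10 log2 SE, limma adjusted p = 7.72e-07). Fstl1, a follistatin-like glycoprotein, rose 3.07-fold, and its 3 probe sets gave differences of 1.62 to 1.68 log2. Fstl3, which binds activins and myostatin, rose 2.31-fold. Nog and Fst, singled out after their values were seen, lay lower with conditioned medium without passing on all scales. Nog, the BMP antagonist noggin, read 4.53 and 4.53 log2 with conditioned medium and 5.42 and 6.01 log2 with EGF alone. The conditioned-medium values were under the dim limit, and Nog passed the filter through the EGF arrays. Its difference of -1.18 log2 had an adjusted p of 0.0128 on quantile normalized and 0.390 on deposited values. The probe sets of Fst, follistatin, disagreed, at -0.80 log2 for 1372750_at and -0.12 log2 for the brighter 1387843_at.

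Of 9 tested genes of TGF-beta latency and activation 2 rose. Itgav, a subunit of integrins that free TGF-beta from its latent complex, rose by 0.63 log2 in its brightest probe set. Its other probe sets rose by up to 1.00 log2. Ltbp1, which holds latent TGF-beta in the matrix, rose by 0.65 ± 0.20 log2 (SE, limma adjusted p = 0.0367). Both lost their calls without the trend, and Ltbp1 also with no filter on dim probe sets. The median difference of these 9 genes was 0.35 log2. Of the integrin beta subunits listed, Itgb6 was dim and Itgb8 could not be named on the array.

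**Figure D4:**
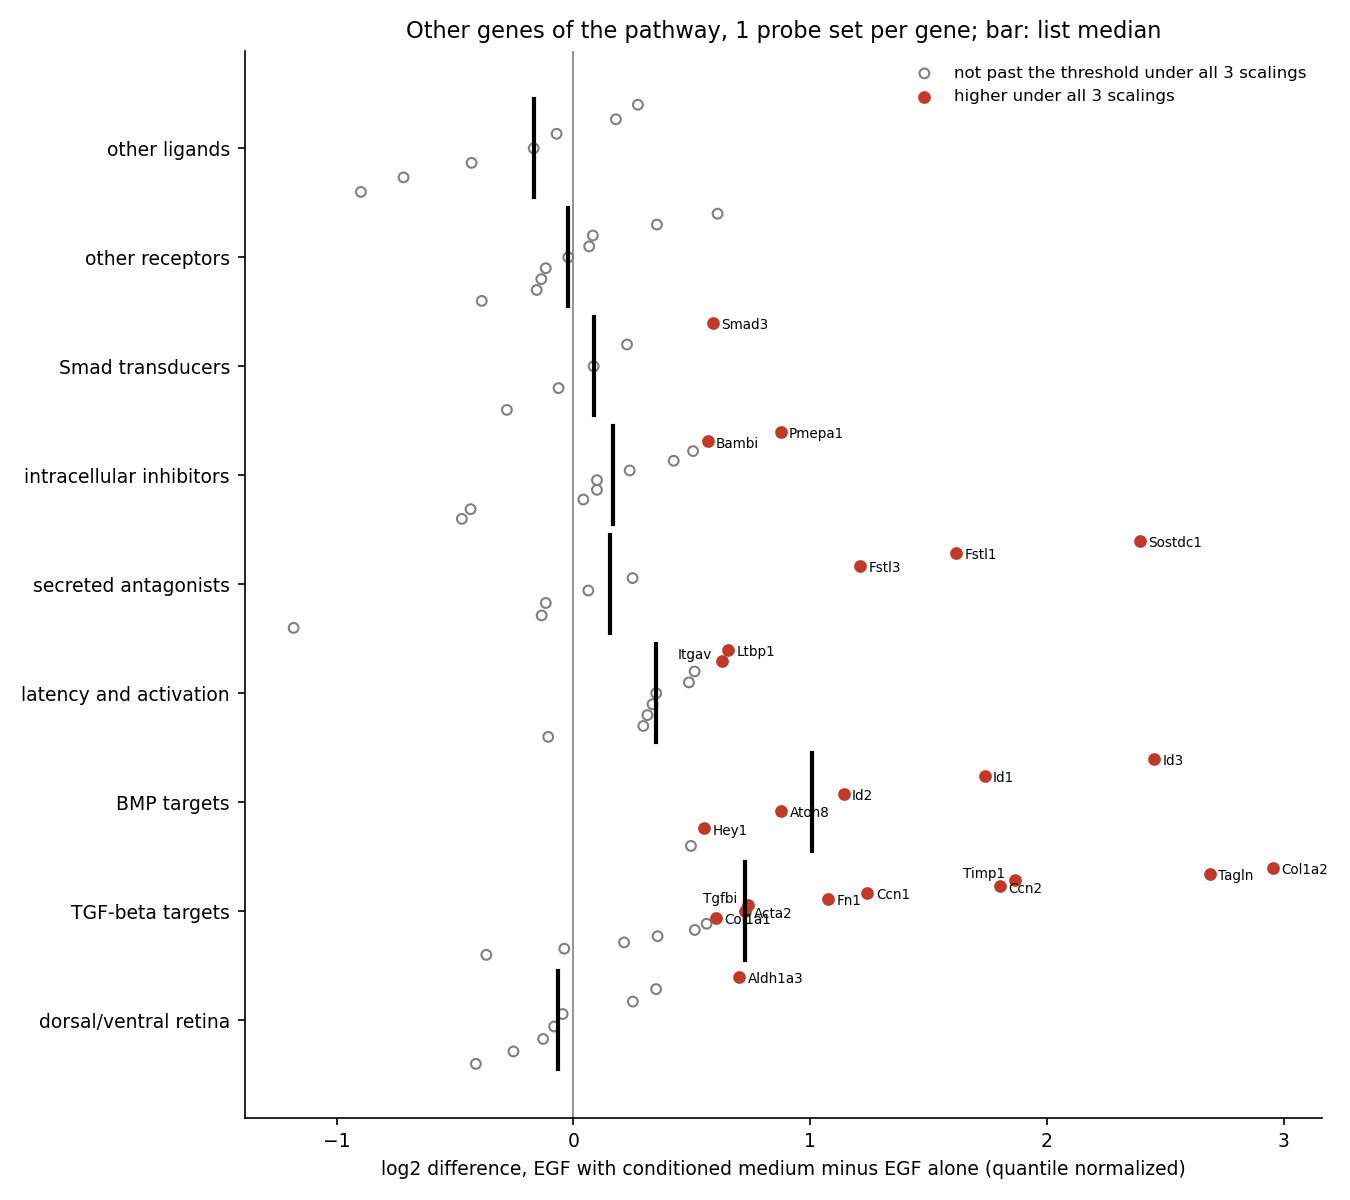
Log2 differences (conditioned medium minus EGF alone, quantile normalized) of the 77 other pathway genes tested, 1 point per gene in rows by role, with the list median as a bar. Filled red points are the 23 genes that passed on all 3 scales; 5 of 6 BMP targets and 9 of 15 TGF-beta targets are filled, and 0 of the other ligands and receptors.

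Genes known as BMP targets rose in 5 of 6 tested, with a median of 1.01 log2 beside 0.00 log2 over all genes tested. Id3, an inhibitor of basic helix-loop-helix factors, read 10.51 and 10.50 log2 with conditioned medium, against 8.15 and 7.96 log2 with EGF alone, a 5.47-fold rise. Id1 rose 3.33-fold and Id2 2.20-fold. Hey1, a transcription factor that Notch also induces, rose 1.47-fold and lost its call with the replicate number as a block and without the trend. Id4 was higher by 0.50 log2 in its brightest probe set but missed on median-centred values, and Msx1 and Msx2 were dim. Atoh8, chosen for mention after its value was seen, was the other rise, at 0.88 log2. The genes were listed with earlier results of these data known.

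Of 15 genes known to respond to TGF-beta 9 rose and 0 fell, with a median of 0.72 log2. Col1a2, a chain of type I collagen, read 9.85 and 9.92 log2 with conditioned medium, against 6.88 and 6.98 log2 with EGF alone, a 7.75-fold rise. The actin-binding protein Tagln rose 6.44-fold, the metalloproteinase inhibitor Timp1 3.64-fold and the matricellular protein Ccn2 3.49-fold. Tagln had an EGF mean of 4.65 log2, under the dim limit, and passed the filter through the conditioned-medium arrays. Col1a2 and Tagln are also markers of mesenchymal cells, and 3 of 7 tested mesenchymal markers rose in the same arrays. The part of these cells in the rises of the target genes was not tested. The list was drawn up with earlier results of these data known, so its direction is no independent evidence. When any 1 array was left out, which leaves 1 array in a group, fewer of these 15 genes rose, and no more of the BMP targets did. In the fits without a conditioned-medium array 0 of all 21717 probe sets passed on quantile normalized values.

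Genes that mark the dorsal and ventral retina, which BMP signals pattern, gave 1 rise among 8 tested, beside 8.53% of all genes tested. Aldh1a3, a retinoic acid synthesizing enzyme of the ventral retina, read 9.45 and 9.35 log2 with conditioned medium against 8.75 and 8.65 log2 with EGF alone, which is 1.62-fold. The median difference of the list was -0.06 log2. Tbx2 and Aldh1a1 were chosen for mention after their values were seen. Tbx2 probe set 1395332_at passed on all 3 scales (0.86 log2), but the brightest, 1375281_at (0.35 log2), and 1375556_at (0.24 log2) did not. Aldh1a1 differed by -0.41 log2 (limma adjusted p = 0.00321) but missed on deposited values (-0.09 log2).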

How the data were processed

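Total RNA of 4 cultures was hybridized to Affymetrix Rat 230 2.0 arrays. The deposited log2 values were made by the authors with RMA in GenePattern, per the labels' design text, and no source used here gives its version or options. Each array held 2738 to 3291 distinct values over 31099 probe sets, with steps of about 0.05 log2 between 4 and 5 log2, so dim values are coarse. Of the probe sets 20826 had 1 gene symbol, 436 several and 9780 none, and 20758 of the first matched RefSeq (GRCr8) by gene identifier. Promoter sequences are from RefSeq.

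Values were quantile normalized and fitted in limma 3.58.1 (R 4.3.3; lmFit, eBayes with intensity trend, two-sided, Benjamini-Hochberg over the 21717 probe sets tested). On deposited values limma's spread came entirely from the trend, so small p-values there rest on pooling. The quantile normalized fit was tested on simulated data that had the same spread for every probe set, which is simpler than the real spread. The labels call the replicates biological. The series description gives a second embryo pool for both conditions but ties no number to a pool, and same-numbered arrays did not deviate together (r = -0.04 across probe sets), so no block was used. Every probe set of the members is reported. Of each other list, up to 4 called genes with the smallest p per direction are named, or the 2 with the smallest p, and others named were chosen after their values were seen. Members, lists and tests were chosen with earlier results of these data known. Array number limits the precision, and no read depth exists.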

Additional observations from a re-analysis of the deposited data

How the results depend on the processing

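Alternatives were other scalings, no filter or a filter on the lowest 50% of probe sets, limma without the trend, a replicate block, each array left out, the mean of a gene's probe sets and a fold rule alone. The 3 rising probe sets among the 10 became 8 on deposited values alone, 1 with the lowest 50% left out (which removes Tgfb1 and 1 Bmp2 probe set), 2 with no filter (Bmp2 1368945_at lost, adjusted p = 0.0911), and 0 by a fold of at least 1 log2. With any 1 array left out these calls were lost. The 23 rising pathway genes became 49 on deposited values alone, 15 without the trend, and 0 to 18 with each array left out. Leaving out an array leaves 1 residual degree of freedom. The pathway genes that fell, 0 on all 3 scales, were 8 on quantile normalized and 13 on median-centred values alone, and 1, Inhbb, with no filter and also with the mean of a gene's probe sets. With the replicate block, 2 member probe sets and 21 pathway genes rose, and 0 of either fell. Signs turned for Tgfb3 (0.55 log2 on deposited values, -0.055 to 0.052 with each array left out), Smad7 1368896_at (0.30 on deposited values, -0.26 to 0.038 with each array left out) and Tgfbr1 1376636_at (-0.12 on median-centred values). The cause was not tested. Neither Bmp2 probe set nor Tgfb1 changed sign in any setting run. Bmp4, Tgfbr1 1369504_at and the dim Smad7 probe sets are limited by signal over background.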

Other observations

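Smad6, the inhibitory Smad of the BMP branch, gave opposite values in its probe sets, which were chosen for mention after their values were seen. Probe set 1394025_at read 6.17 and 6.44 log2 with conditioned medium against 5.30 and 3.34 log2 with EGF alone, a difference of 1.98 ± 0.50 log2 (SE, limma adjusted p = 0.0162), and passed on all 3 scales. Its EGF arrays lay far apart, and their mean of 4.32 log2 was under the dim limit, so it passed the filter through the conditioned-medium arrays. The brighter 1375121_at read 6.29 and 6.44 log2 with conditioned medium against 6.69 and 6.90 log2 with EGF alone, a difference of -0.43 log2 that did not pass (adjusted p = 0.0794). Which of them follows the transcript was not tested.

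The 4 tested probe sets of Id4 also differed in size, at 1.22 log2 for 1375120_at, 0.50 for 1394022_at, 0.46 for 1385923_at and 0.22 for 1375183_at. All 4 were above 0, and 1375120_at passed on all 3 scales while the brightest, 1394022_at, did not.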
